A study of Homo sapiens with 4 samples.

Results

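The genes described here code for the proteins of the cytosolic ribosome. They were taken as protein-coding genes whose symbol is RPL or RPS followed by a number and an optional A, L, X or Y, together with RPSA, RPLP0, RPLP1 and RPLP2, and without the RPS6K kinases. The rule found 78 of the 36525 genes in the table, 47 of the large and 31 of the small subunit, and it used no measured value. RPL3, RPL17 and RPS21 were not analysed here. RNA was sequenced from LM2 cells, a lung metastatic clonal line derived from MDA-MB-231, which is a mesenchymal human breast cancer line. In 2 libraries the cells had a knockdown of hnRNPM, a splicing regulator that binds RNA, and 2 libraries were of control cells of the same line, all collected 48 h after plating. The labels speak of an siRNA in one place and of an shRNA in another, so the agent is called a knockdown here, and both groups are of a single clonal line. No label states that the libraries of a group are from separate cultures, so p-values measure only how far these samples spread, which can be technical.

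The cytosolic ribosome joins ribosomal RNA and one copy of most of its proteins into a small subunit, which reads the mRNA, and a large subunit, which forms the peptide bond. Its protein genes are known for abundant mRNAs and for many processed pseudogenes, which are copies of those mRNAs inserted elsewhere in the genome. Most of these mRNAs begin with a C followed by a run of pyrimidines, the 5′ terminal oligopyrimidine (TOP) tract, through which the mTOR pathway and LARP1 control their translation and stability.

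The TOP tract was looked for in RefSeq windows around annotated transcription starts (GRCh38.p14), on the strand of the gene alone, as a C at the first transcribed base followed by 4 bases that are each C or T. Of 76 windows of 61 ribosomal protein genes, 45 had it at the start, or 59.2%, against 4.07% of 35116 windows of all genes. The windows below belong to genes with results described further on, to RPS6, and to the paralogs RPS27 and RPS27L. They run from 10 bases before the start and cover 20 bases from it, and capitals mark the tract where it begins at the annotated start.
RPL13A, chr19:49487598-49487627, + strand: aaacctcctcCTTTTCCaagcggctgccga
RPL12, chr9:127451387-127451416, − strand: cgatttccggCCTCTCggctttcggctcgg
RPLP2, chr11:809957-809986, + strand: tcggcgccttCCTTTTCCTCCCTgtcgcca
RPS23, chr5:82278335-82278364, − strand: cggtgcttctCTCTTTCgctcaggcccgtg
RPL27A, chr11:8682782-8682811, + strand: gaaggccttcCTTTTTCgtctgggctgcca
RPS6, chr9:19380217-19380246, − strand: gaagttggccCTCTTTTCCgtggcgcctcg
RPS27, chr1:153990752-153990781, + strand: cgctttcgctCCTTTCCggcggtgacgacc
RPS27L, chr15:63157458-63157487, − strand: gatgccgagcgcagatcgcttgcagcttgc
RPL10A, chr6:35468391-35468420, + strand: aagacatgctagtctcttttccggttagcg
RPS28, chr19:8321486-8321515, + strand: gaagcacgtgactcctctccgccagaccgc
RPS27 and its paralog RPS27L differ in these letters, since RPS27L has no such tract in the window. RPL10A and RPS28 have pyrimidine runs that begin after the annotated start.

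The values are RPKM, reads scaled by a length of the gene and by a read total. The steps of low values mostly match a length that counts every annotated exon of a gene, which can far exceed 1 mRNA. For RPS29 this length is 9845 bases, against 296 for 1 of its mRNAs, and for RPL10A 1501 against 716. Levels of different genes are thus lowered by unequal factors, and the part of this in the comparisons between genes below was not tested. The mean RPKM over the 4 libraries was under 1 for 6 of the 78 genes, from 1 to 10 for 45, from 10 to 50 for 21 and at least 50 for 6. The median gene had a mean of 6.16 RPKM, beside 4.98 RPKM for the median of the 13627 genes with a mean of at least 1. RPL8, which lies near the peptidyl transferase centre, was at 99.9 and 118 RPKM in the hnRNPM knockdown libraries and 115 and 137 RPKM in the control libraries. RPL36 was at 102 and 115 RPKM in the knockdown and 127 and 155 RPKM in the control libraries. Both genes stood at the top of the family in all 4 libraries. At the other end, RPS18, a protein of the small subunit head, was listed at 0 and 0.0178 RPKM in the knockdown and at 0 in both control libraries.

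The level of a gene in the table moved with how much of its coding sequence is found at a single place. Each coding sequence was split into windows of 36 bases, and a window was called unique when no transcript of another GENCODE 29 gene held the same letters. The 10 genes with 0% unique windows had mean levels from 0.927 to 13.7 RPKM, with a median of 3.12 RPKM. The 19 genes with at least 75% unique windows had mean levels from 0.0074 to 125 RPKM, with a median of 31.1 RPKM. Across the 78 genes the Spearman correlation of the unique share with the mean RPKM was 0.45, and 0.51 with windows of 50 bases and up to 2 mismatches. These genes were measured in the same 4 libraries and are not independent replicates. The sources used here do not say how reads that match several places were counted, and the part of this in these levels was not tested.

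**Figure D1:**
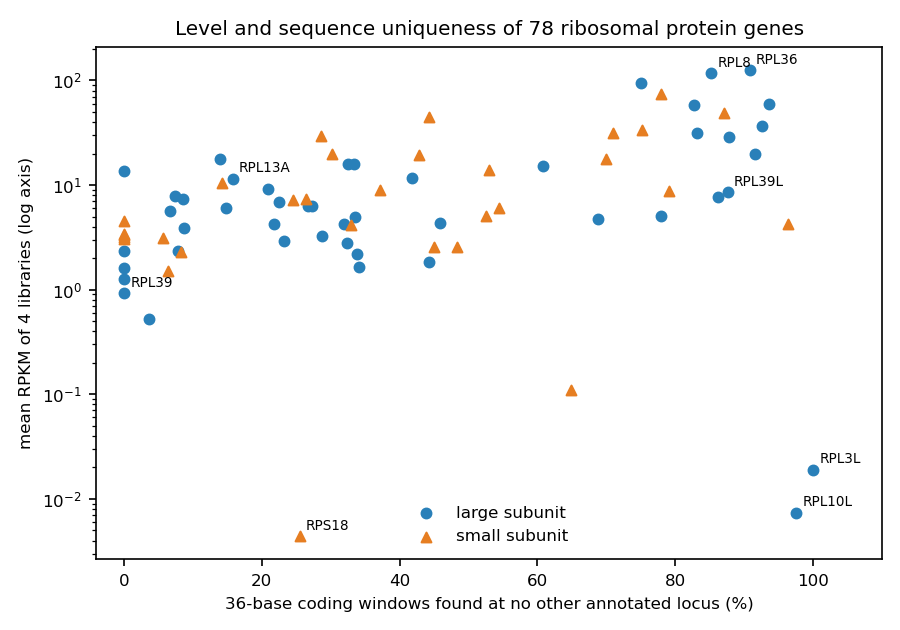
Each point is 1 of the 78 ribosomal protein genes, with the share of its 36-base coding windows found at no other annotated gene (percent) on the x axis and its mean RPKM over the 4 libraries (log scale) on the y axis; circles are large subunit and triangles small subunit genes. The 6 genes with a mean of at least 50 RPKM all have at least 75% unique windows, and the 10 genes with 0% lie between 0.927 and 13.7 RPKM.

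RPL39, a small protein at the exit of the peptide tunnel, shows this closely. Its coding sequence has 156 bases, and its paralog RPL39L and the pseudogene RPL39P5 differ from it at 8 and 7 of them. In the lines below, from GENCODE 29 transcripts, capitals mark the bases that differ from RPL39.
RPL39, chromosome X: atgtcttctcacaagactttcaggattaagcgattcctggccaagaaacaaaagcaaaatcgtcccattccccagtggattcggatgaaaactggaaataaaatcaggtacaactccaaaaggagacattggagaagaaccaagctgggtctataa
RPL39L, chromosome 3: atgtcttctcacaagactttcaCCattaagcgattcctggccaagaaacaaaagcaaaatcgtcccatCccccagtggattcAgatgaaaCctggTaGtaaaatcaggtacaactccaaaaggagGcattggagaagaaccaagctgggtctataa
RPL39P5, chromosome 3: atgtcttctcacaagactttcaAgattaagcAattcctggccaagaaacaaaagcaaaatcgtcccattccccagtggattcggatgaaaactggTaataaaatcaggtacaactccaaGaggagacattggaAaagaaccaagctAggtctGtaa
None of the RPL39 coding windows of 36 bases was unique, against 87.6% of those of RPL39L. With windows of 50 bases and up to 2 mismatches the shares were 0% for RPL39 and 30.8% for RPL39L. The annotated exons of RPL39 cover 2141 bases, against 401 for 1 of its mRNAs, which lowers its RPKM if that length was used. RPL39 was at 0.835 and 0.976 RPKM in the knockdown and 0.937 and 0.959 RPKM in the control libraries, under the filter described below. The pseudogene RPL39P5 was at 33.7 and 36.1 RPKM in the knockdown and 31.4 and 35.6 RPKM in the control libraries, far above the gene it was copied from. It lies inside AMOTL2 on the same strand, and AMOTL2 was at 22.99 and 25.7 RPKM in the knockdown and 24.3 and 28.1 RPKM in the control libraries, so reads of the 2 genes cannot be told apart without the counting rules.

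The knockdown was seen in the targeted gene. HNRNPM had 11.5 and 12.95 RPKM in the knockdown libraries, against 88.6 and 102 RPKM in the control libraries, with no overlap between the groups. Estimated from the steps of low values, reads summed over genes came to 16.5 M and 18.3 M in the knockdown libraries. In the control libraries they came to 23.0 M and 26.6 M. The read total that matched the steps was 29.7 M for the knockdown group and 41.9 M for the control group. Summed RPKM differed within each group (163078 and 180958 in knockdown, 162466 and 187293 in control). The median tested ribosomal protein gene had 667 estimated reads per knockdown library and 1185 per control library, and the lowest value among the tested ones was 73.3 reads. Between libraries of a group, the mean chi-square per ribosomal protein gene was 1.47 in knockdown (74 genes) and 1.65 in control (75 genes), where counting error alone gives about 1. The mesenchymal marker VIM was at 562 and 631 RPKM in the knockdown and 648 and 759.8 RPKM in the control libraries, the oestrogen receptor gene ESR1 was at most at 0.0322 RPKM and the progesterone receptor gene PGR at 0 in all 4. The leukocyte gene PTPRC and the fibroblast gene DCN were at most at 0.0158 and 0.0125 RPKM, at or near 0. Of the other markers, SPARC was at 183 and 201 RPKM in the knockdown and 70.1 and 80.3 RPKM in the control libraries, CD44 at 51.1 and 56.1 RPKM in the knockdown and 62.7 and 71.9 RPKM in the control libraries, and CDH1, an epithelial marker, at 0.717 and 0.990 RPKM in the knockdown and 0.0774 and 0.0629 RPKM in the control libraries. EPCAM, also epithelial, was at 1.11 and 1.18 RPKM in the knockdown and 1.25 and 0.910 RPKM in the control libraries.

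After hnRNPM knockdown most ribosomal protein mRNAs were slightly lower, and the number that passed the test depended on how the libraries were scaled. Of the 72 genes with a mean of at least 1 RPKM, as deposited, 9 fell (RPL13A, RPL39L, RPS28, RPL12, RPL10A, RPS20, RPLP2, RPS23 and RPL10), 1 rose (RPL27A) and 62 did not pass (limma on log2(RPKM + 0.5), Benjamini-Hochberg adjusted p under 0.05 over all 13627 tested genes). Among all tested genes 21.8% fell and 14.7% rose, beside 12.5% and 1.39% of the ribosomal protein genes. The median log2 fold change, knockdown minus control, was −0.18 for the 72 genes and −0.07 for all tested genes, and it was negative for 54 of the 72 (75%) and for 56.2% of all. Without control replicate 2 these medians were −0.09 for the 72 genes and 0.02 for all, without knockdown replicate 1 −0.11 and 0.00, without control replicate 1 −0.28 and −0.16, and without knockdown replicate 2 −0.26 and −0.13. Both knockdown libraries lay below both control libraries for 38 genes (52.8%, against 38.8% of all tested genes), and above them for 9 (12.5%, against 28%). Changes were small, with 66 of the 72 within 0.5 on the log2 scale in either direction.

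By subunit, of 43 tested large subunit genes, 6 fell (13.95%) and 1 rose (2.33%), with a median log2 fold change of −0.15. Of 29 small subunit genes 3 fell (10.34%) and 0 rose, with a median of −0.19. Beside these shares, 21.8% of all tested genes fell and 14.7% rose as deposited. Scaling the libraries by their median ratio took out the depth difference within groups and lowered the median SE of a log2 fold change to 0.0543, against 0.175 as deposited. With it 31 of the 72 fell, 12 rose and 29 did not pass, and the background became 29.9% of all tested genes lower and 31.1% higher. The median log2 fold change was then −0.11 for the ribosomal protein genes and 0.00 for all tested genes, and the 10 calls named above all passed in the same direction.

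**Figure D2:**
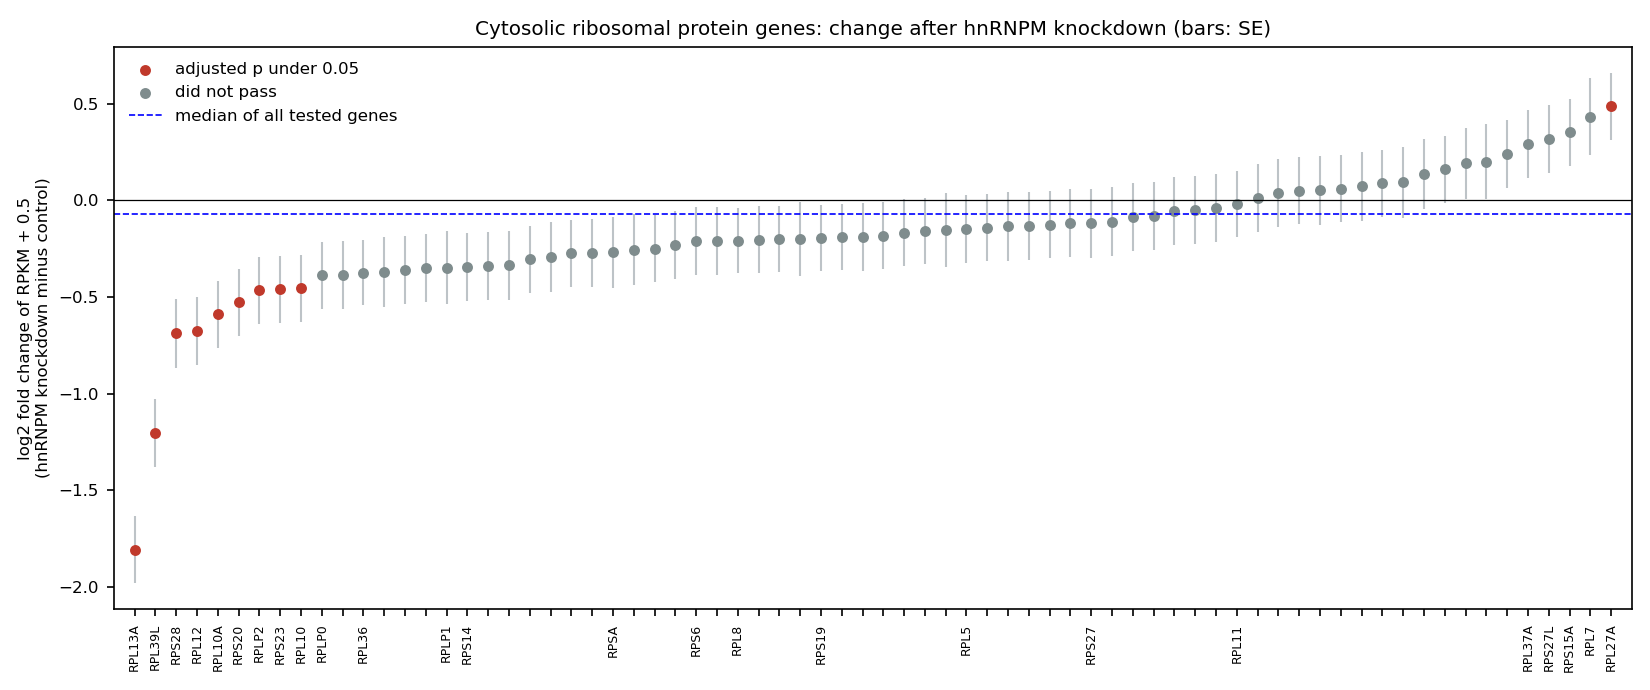
Log2 fold change of RPKM + 0.5 (hnRNPM knockdown minus control) for the 72 tested ribosomal protein genes, ordered by value, with bars for the SE and names for the main genes described in the text. The points run from −1.81 (RPL13A) to 0.49 (RPL27A), 54 lie below 0, and 10 pass the threshold.

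RPL13A (ENSG00000142541), a large subunit protein whose mRNA is a common reference in quantitative PCR, fell most. It was at 4.53 and 5.15 RPKM in the hnRNPM knockdown libraries and 17.4 and 18.9 RPKM in the control libraries, with both knockdown values far below both control values. The means were 4.84 ± 0.432 RPKM in knockdown and 18.2 ± 1.09 RPKM in control (SD, n = 2 each), which is 3.75-fold lower, and the log2 fold change of −1.81 ± 0.18 (SE; limma, adjusted p = 8.71e-23) was number 75 from the lowest among the 13627 tested genes. Of the 4 small nucleolar RNA genes inside RPL13A, SNORD32A was at 7.23 and 6.82 RPKM in the knockdown and 7.96 and 6.54 RPKM in the control libraries, and SNORD34 at 6.65 and 5.70 RPKM in the knockdown and 8.07 and 7.73 RPKM in the control libraries. The groups overlapped for SNORD32A and SNORD33, and the knockdown values were the lower ones for SNORD34 and SNORD35A. Counting error was not judged for these 4 small genes, and their differences were not tested. In RPL13A, 15.8% of coding windows were unique, and it overlaps an unnamed processed transcript on the same strand.

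RPL39L (ENSG00000163923), the paralog of RPL39 known from testis and from many cancer cell lines, fell as well. Its values were 4.83 and 5.15 RPKM in the knockdown and 11.9 and 12.3 RPKM in the control libraries, without overlap. It was 2.43-fold lower, a log2 fold change of −1.20 ± 0.18 (limma, adjusted p = 1.73e-10). Of the 10 genes that passed, RPL13A and RPL39L were the 2 that did so in all 4 fits that left out 1 library.

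The stalk of the large subunit, which binds the GTPase translation factors, is built on RPL12 and RPLP0 and carries RPLP1 and RPLP2. RPL12 was at 2.94 and 3.42 RPKM in the hnRNPM knockdown and 5.20 and 5.56 RPKM in the control libraries, with a log2 fold change of −0.68 ± 0.18 (limma, adjusted p = 0.000704). RPLP2 was at 29.1 and 32.7 RPKM in the knockdown and 39.1 and 46.8 RPKM in the control libraries, with a log2 fold change of −0.47 ± 0.17 (limma, adjusted p = 0.0233). Both fell, and neither overlapped between groups. RPLP0 was at 5.34 and 6.36 RPKM in the knockdown and 7.12 and 8.51 RPKM in the control libraries (−0.39; limma, adjusted p = 0.0688). RPLP1 was at 1.44 and 1.68 RPKM in the knockdown and 1.96 and 2.28 RPKM in the control libraries (−0.35; limma, adjusted p = 0.140). Neither passed as deposited, though the groups did not overlap, and both passed with median-ratio scaling (limma, adjusted p = 0.0109 for RPLP0 and 0.0200 for RPLP1).

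Of the other large subunit genes that fell, RPL10A forms the mobile L1 stalk beside the exit site for tRNA. It was at 12.04 and 12.9 RPKM in the knockdown and 17.4 and 20.7 RPKM in the control libraries, a log2 fold change of −0.59 ± 0.18 (limma, adjusted p = 0.00343). RPL10, which joins the large subunit late in its assembly, was at 6.36 and 6.72 RPKM in the knockdown and 8.55 and 9.78 RPKM in the control libraries, a log2 fold change of −0.46 ± 0.18 (limma, adjusted p = 0.0288). The groups overlapped for neither gene, and for RPL10 7.38% of coding windows were unique. RPL27A (ENSG00000166441) was the gene that rose, at 7.13 and 7.73 RPKM in the knockdown and 4.99 and 5.32 RPKM in the control libraries, a log2 fold change of 0.49 ± 0.18 (limma, adjusted p = 0.0184). It overlaps TRIM66 and ST5 on the opposite strand. Of the genes that fell, RPL10, RPLP2, RPS23 and RPS28 also overlap protein-coding genes on the opposite strand. The sources used here do not say whether counting used the strand.

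In the small subunit, RPS28, which lies near the mRNA exit, was at 2.21 and 2.47 RPKM in the hnRNPM knockdown and 3.87 and 4.28 RPKM in the control libraries. Its log2 fold change was −0.69 ± 0.18 (limma, adjusted p = 0.000693), and 0% of its coding windows were unique. RPS20, a protein of the subunit head, was at 15.7 and 16.2 RPKM in the knockdown and 21.9 and 24.6 RPKM in the control libraries, a log2 fold change of −0.53 ± 0.17 (limma, adjusted p = 0.00968). RPS23, which sits at the decoding centre, was at 36.3 and 39.1 RPKM in the knockdown and 48.4 and 55.98 RPKM in the control libraries, a log2 fold change of −0.46 ± 0.17 (limma, adjusted p = 0.0245). All 3 fell without overlap between groups. When 1 library was left out, RPS28 and RPL12 passed in 2 of 4 fits (limma, adjusted p from 0.0526 to 0.158 without control replicate 2 or knockdown replicate 1) and RPL10A in 1 of 4 (without control replicate 1), while RPS20, RPLP2, RPS23, RPL10 and RPL27A passed in 0 of 4, with adjusted p up to 0.499. With median-ratio scaling each of the 10 passed in 4 of 4 such fits. In a fit without the filter on low values, RPL13A and RPL39L passed and the other 8 did not (limma, adjusted p from 0.0688 to 0.154), and without a variance trend RPLP2, RPS23 and RPL10 did not (limma, adjusted p = 0.0560, 0.0591 and 0.0624).

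**Figure D3:**
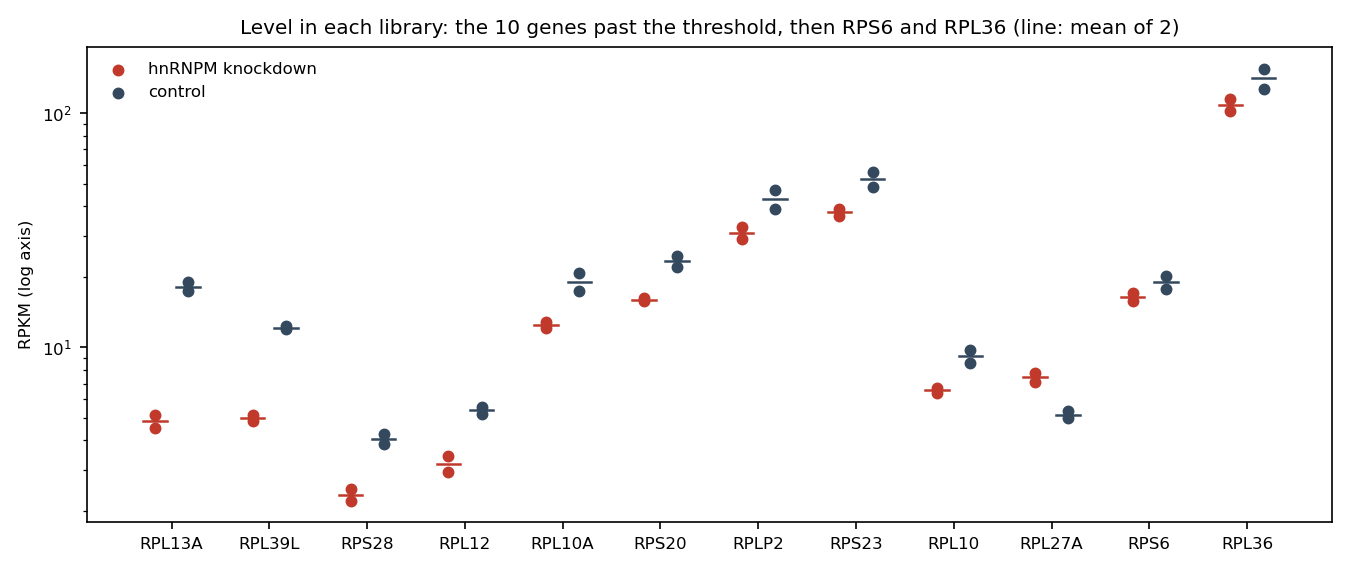
RPKM (log scale) of the 10 ribosomal protein genes that passed the threshold, then of RPS6 and RPL36, in the 2 hnRNPM knockdown and the 2 control libraries, each point 1 library and each line the mean of 2. The knockdown points of RPL13A (4.53 and 5.15) and RPL39L (4.83 and 5.15) stand clear of their control points (17.4 and 18.9, and 11.9 and 12.3), and RPL27A is the gene whose knockdown points lie above its control points.

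Several genes with a known part outside or at the edge of the ribosome did not pass as deposited. RPL5 and RPL11 form a particle with 5S ribosomal RNA that can bind MDM2 and so stabilise p53. RPL11 was at 56.4 and 62.2 RPKM in the knockdown and 56.1 and 64.3 RPKM in the control libraries, with overlap, and its log2 fold change of −0.02 (limma, adjusted p = 0.943) became 0.06 with median-ratio scaling (limma, adjusted p = 0.0243), in the other direction. RPL5 was at 4.44 and 4.85 RPKM in the knockdown and 4.89 and 5.51 RPKM in the control libraries (−0.15; limma, adjusted p = 0.544). RPS6, the substrate of the S6 kinases downstream of mTOR, was at 15.8 and 16.98 RPKM in the knockdown and 17.8 and 20.3 RPKM in the control libraries. Its groups did not overlap, and its log2 fold change was −0.21 (limma, adjusted p = 0.367; with median-ratio scaling 0.0161). RPS19, which is mutated in Diamond-Blackfan anaemia, was at 43.2 and 47.6 RPKM in the knockdown and 47.3 and 56.8 RPKM in the control libraries (−0.19; limma, adjusted p = 0.400). RPS14, whose loss contributes to the 5q- syndrome, was at 7.17 and 8.19 RPKM in the knockdown and 9.34 and 10.4 RPKM in the control libraries (−0.34; limma, adjusted p = 0.114). The values of RPS14 did not overlap between groups, and those of RPS19 did. Both passed as lower with median-ratio scaling (limma, adjusted p = 0.0290 for RPS19 and 0.00658 for RPS14), while RPL5 and RPSA did not (limma, adjusted p = 0.152 for RPL5 and 0.0923 for RPSA). RPSA, which also acts as a laminin receptor, was at 2.03 and 2.01 RPKM in the knockdown and 2.27 and 2.83 RPKM in the control libraries (−0.27; limma, adjusted p = 0.259).

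After RPL27A, the 4 highest log2 fold changes belonged to RPL7, RPS15A, RPS27L and RPL37A, which did not pass as deposited and passed as higher with median-ratio scaling. RPL7 was at 1.35 and 1.68 RPKM in the knockdown and 0.781 and 1.23 RPKM in the control libraries (0.43; limma, adjusted p = 0.0741), with 0% unique windows. RPS15A was at 9.87 and 10.3 RPKM in the knockdown and 7.20 and 8.40 RPKM in the control libraries (0.35; limma, adjusted p = 0.103). RPL37A was at 5.35 and 5.91 RPKM in the knockdown and 4.11 and 4.94 RPKM in the control libraries (0.29; limma, adjusted p = 0.189). All 3 were higher in both knockdown libraries than in both control libraries. With median-ratio scaling the adjusted p was 0.0430 for RPL7, 0.00301 for RPS15A and 0.00382 for RPL37A (limma).

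Some ribosomal proteins have a paralog, and some of these paralogs can take the place of their partner in the ribosome. RPS27L, a p53 target in human cells, was at 4.54 and 4.87 RPKM in the knockdown and 3.44 and 3.93 RPKM in the control libraries (0.32; limma, adjusted p = 0.151). RPS27 was at 2.39 and 3.42 RPKM in the knockdown and 3.31 and 3.003 RPKM in the control libraries (−0.12; limma, adjusted p = 0.647). Neither passed as deposited. With median-ratio scaling RPS27L passed as higher (0.39; limma, adjusted p = 0.00323) and RPS27 did not pass (limma, adjusted p = 0.812), and the difference between the 2 genes was not tested. Of the paralogs RPL22L1, RPL26L1, RPL7L1 and RPL36AL, whose symbols fall outside the rule, 0 of 4 rose or fell, with log2 fold changes from −0.20 to 0.09. RPL22L1 was at 8.51 and 8.70 RPKM in the knockdown and 7.81 and 9.50 RPKM in the control libraries, beside RPL22 at 6.60 and 7.33 RPKM in the knockdown and 7.26 and 8.01 RPKM in the control libraries. RPL26L1 was at 2.55 and 4.03 RPKM in the knockdown and 2.81 and 3.18 RPKM in the control libraries, beside RPL26 at 2.96 and 3.25 RPKM in the knockdown and 3.08 and 3.86 RPKM in the control libraries. In RPKM both paralogs were near their partners, and the groups overlapped for both. Unique coding windows were 8.52% for RPL22 and 28.8% for RPL26, against 87.1% for RPL22L1 and 30.8% for RPL26L1. The annotated exons of RPL22 cover 4682 bases, against 2078 for 1 of its mRNAs. Those of RPL26 cover 2513, against 585. The part of this in these levels was not tested. RPL7L1 was at 7.13 and 8.07 RPKM in the knockdown and 7.999 and 9.68 RPKM in the control libraries. RPL36AL, with 41.4 and 45.6 RPKM in the knockdown and 43.9 and 46.9 RPKM in the control libraries, stood far above RPL36A, at 1.32 and 1.61 RPKM in the knockdown and 1.54 and 1.98 RPKM in the control libraries. No coding window of RPL36A was unique, and its annotated exons cover 3964 bases, against 429 for 1 of its mRNAs. The muscle paralog RPL3L and the testis paralog RPL10L were under the filter. RPL3L was at 0.0316 and 0 RPKM in the knockdown and 0.0112 and 0.0336 RPKM in the control libraries, and RPL10L was listed at 0 in both knockdown libraries and at 0.0296 and 0 RPKM in the control libraries.

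As a share of all RPKM, the ribosomal protein mRNAs were lower in both knockdown libraries than in both control libraries. The 78 genes summed to 1057 and 1183 RPKM in the hnRNPM knockdown libraries and to 1231 and 1424 RPKM in the control libraries. These sums made up 0.648% and 0.654% of the summed RPKM in the knockdown and 0.758% and 0.760% in the control libraries, so that the difference between groups was larger than that within them. RPKM is relative to the rest of the library, so less ribosomal protein mRNA per cell and more mRNA of other genes cannot be told apart here. The means were 0.651% ± 0.00361 in knockdown and 0.759% ± 0.00175 in control (SD, n = 2 each), and no test was run, since the smallest two-sided p of an exact permutation test over 2 and 2 libraries is 0.333. The large subunit held 0.425% in knockdown and 0.496% in control, and the small subunit 0.226% in knockdown and 0.263% in control. Of the net difference in mean summed RPKM, RPL36 made up 15.7%, RPL8 8.20%, RPS23 6.98% and RPL13A 6.43%. Without RPL13A and RPL39L the share was 0.643% and 0.648% in the knockdown and 0.740% and 0.744% in the control libraries. RPL36 itself did not pass as deposited (−0.37; limma, adjusted p = 0.0688) and passed as lower with median-ratio scaling (limma, adjusted p = 0.00476). It overlaps HSD11B1L on the same strand and LONP1 on the opposite strand.

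**Figure D4:**
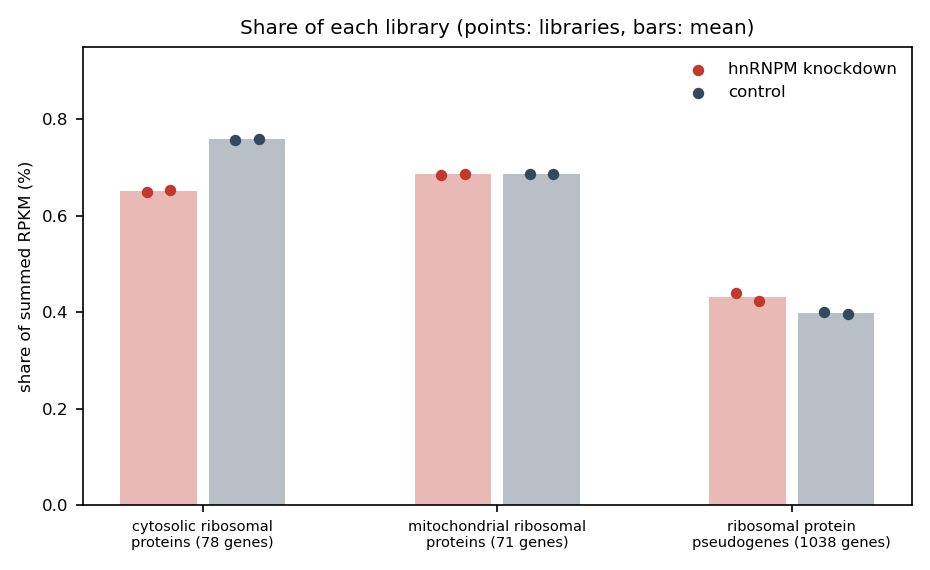
Summed RPKM of 3 gene groups as a percent of the summed RPKM of each library, with the 2 hnRNPM knockdown libraries left of the 2 control libraries. The cytosolic ribosomal protein genes lie at 0.648% and 0.654% in the knockdown and 0.758% and 0.760% in the control libraries, the mitochondrial ones between 0.685% and 0.688% in all 4, and the pseudogenes, RPL36AP44 and RPL24P8 included, at 0.439% and 0.423% in the knockdown and 0.401% and 0.397% in the control libraries.

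The proteins of the mitochondrial ribosome, coded by nuclear genes of a separate family, were set beside them. The 71 mitochondrial ribosomal protein genes made up 0.685% and 0.686% of the summed RPKM in the knockdown and 0.688% and 0.686% in the control libraries, with overlap between the groups. Of 70 tested, 5 fell (7.14%, against 21.8% of all tested genes), 4 rose (5.71%, against 14.7%) and 61 did not pass. Their median log2 fold change was −0.03. With median-ratio scaling 18 fell (25.7%, against 29.9% of all tested genes) and 25 rose (35.7%, against 31.1%). The 1038 genes named as ribosomal protein pseudogenes held 0.439% and 0.423% in the knockdown and 0.401% and 0.397% in the control libraries. This difference rested on RPL36AP44 and RPL24P8, which lie inside other genes. Without them, a choice made after their values were seen, the share was 0.382% and 0.365% in the knockdown and 0.372% and 0.368% in the control libraries, with overlap. Of 149 tested pseudogenes, 16 fell (10.7%) and 21 rose (14.1%), against 21.8% and 14.7% of all tested genes. Their median log2 fold change was −0.01. With median-ratio scaling 10 fell (6.71%, against 29.9% of all tested genes) and 23 rose (15.4%, against 31.1%).

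The median log2 fold change was negative both among genes with mostly unique coding windows and among the rest. Of 24 tested genes with at least 50% unique windows, 2 fell (8.33%, against 21.8% of all tested genes) and 0 rose (against 14.7%). Their median log2 fold change was −0.20. With median-ratio scaling 14 fell and 4 rose, where 29.9% of all tested genes fell and 31.1% rose. Of the 48 others, 7 fell (14.6%) and 1 rose (2.08%), with a median of −0.14. With median-ratio scaling 17 of these fell (35.4%, against 29.9%) and 8 rose (16.7%, against 31.1%). Across the 72 genes the Spearman correlation of the unique share with the log2 fold change was −0.15. The 43 tested genes with a TOP tract at an annotated start had a median log2 fold change of −0.20, and the 15 with windows but no tract there −0.06. Of the 24 tested genes that hold a small nucleolar RNA gene, 5 fell (20.8%, near the 21.8% of all tested genes) and 1 rose (4.17%, against 14.7%). Their median was −0.26. With median-ratio scaling 12 fell (50%, against 29.9% of all tested genes) and 3 rose (12.5%, against 31.1%). Among the 48 others, 4 fell (8.33%) and 0 rose, with a median of −0.15. With median-ratio scaling 19 of them fell (39.6%, against 29.9%) and 9 rose (18.75%, against 31.1%). The differences between these classes were not tested.

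Other mRNAs known to carry a TOP tract, mainly those of translation factors, passed the test at about the rate of all tested genes. Of 20 tested, 4 fell (20%, against 21.8% of all tested genes), 2 rose (10%, against 14.7%) and 14 did not pass, and their median log2 fold change was −0.14. With median-ratio scaling 7 fell (35%, against 29.9%) and 6 rose (30%, against 31.1%). EEF1D, an exchange factor subunit for elongation factor eEF1A, was at 3.99 and 4.59 RPKM in the knockdown and 7.27 and 8.45 RPKM in the control libraries, a log2 fold change of −0.80 ± 0.18 (limma, adjusted p = 3.75e-05). TPT1, which codes for the translationally controlled tumour protein, was at 17.7 and 20.1 RPKM in the knockdown and 30.9 and 35.3 RPKM in the control libraries, a log2 fold change of −0.79 ± 0.17 (limma, adjusted p = 4.74e-05). Both fell without overlap. PABPC1, the cytoplasmic poly(A)-binding protein, was at 32.04 and 36.2 RPKM in the knockdown and 20.5 and 24.7 RPKM in the control libraries, and EIF2S3, the gamma subunit of initiation factor eIF2, at 6.22 and 6.59 RPKM in the knockdown and 3.65 and 4.66 RPKM in the control libraries. Both rose, with log2 fold changes of 0.59 ± 0.17 for PABPC1 and 0.58 ± 0.18 for EIF2S3 (limma, adjusted p = 0.00346 and 0.00436). Of the ribosomal proteins made as fusions with ubiquitin or a ubiquitin-like protein, FAU and RPS27A did not pass: FAU at 13.2 and 14.9 RPKM in the knockdown and 14.8 and 16.8 RPKM in the control libraries, and RPS27A at 2.85 and 3.48 RPKM in the knockdown and 2.80 and 3.26 RPKM in the control libraries.

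Among 15 tested genes of the mTOR pathway and of TOP mRNA control, 3 fell (20%, near the 21.8% of all tested genes). Of these 15, 0 rose (against 14.7%) and 12 did not pass, and their median log2 fold change was −0.00. With median-ratio scaling 5 fell (33.3%, against 29.9% of all tested genes) and 7 rose (46.7%, against 31.1%). EIF4EBP1, a repressor of cap-dependent translation that mTOR inactivates, was at 21.9 and 24.01 RPKM in the knockdown and 44.9 and 51.7 RPKM in the control libraries, which is 2.10-fold lower (−1.05 ± 0.17; limma, adjusted p = 2.15e-08). The tumour suppressor gene TSC1, which restrains mTOR, fell too (−0.53; limma, adjusted p = 0.01002), as did MLST8, a subunit of both mTOR complexes (−0.49; limma, adjusted p = 0.0186). RICTOR, a subunit of the second mTOR complex, was at 2.91 and 3.48 RPKM in the knockdown and 2.30 and 2.54 RPKM in the control libraries (0.33; limma, adjusted p = 0.136). LARP1, which binds the TOP tract, was at 33.2 and 36.9 RPKM in the knockdown and 31.2 and 35.6 RPKM in the control libraries, with overlap. Of 5 dedicated ribosomal protein chaperones, which escort single ribosomal proteins before assembly, 0 fell, 0 rose and 5 did not pass, and their median log2 fold change was 0.28. AAMP, whose yeast counterpart escorts the RPL10 protein, was at 26.8 and 27.97 RPKM in the knockdown and 21.03 and 23.8 RPKM in the control libraries. BCCIP, the chaperone of RPL23, was at 12.2 and 14.3 RPKM in the knockdown and 10.02 and 11.4 RPKM in the control libraries. With median-ratio scaling all 5 rose, against 31.1% of all tested genes. GRWD1, whose yeast counterpart escorts the RPL3 protein, was at 31.5 and 35.997 RPKM in the knockdown and 23.5 and 27.2 RPKM in the control libraries (0.41; limma, adjusted p = 0.0528 as deposited and 0.000822 with median-ratio scaling).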

How the data were processed

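The authors deposited 1 table of RPKM values for 36525 Ensembl genes in 4 libraries, and 0 sample columns were left unused. Per the submitters' processing notes, Bowtie 0.12.7 and the build hg19 were used; the sources used here do not give the counting program, its gene lengths, its use of strand or its treatment of reads that match several places. Symbols were taken from a current symbol table and GENCODE 29. The values were fitted as log2(RPKM + 0.5) over the 13627 genes with a mean of at least 1 RPKM, with limma 3.58.1 in R 4.3.3 (group alone, variance trend, Benjamini-Hochberg adjustment over all tested genes, threshold 0.05), and checked on simulated data. This scale understates changes of low genes. limma found no spread of variances beyond the trend, so all genes share 1 variance trend, on which very small p-values rest.

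Depth was estimated from the steps of low values, with GENCODE 29 exon lengths: 82.8% of 37215 low values were whole reads within 0.1 read. The step of 1 read was fitted once per group, on both libraries together, and was not fitted for each library alone. With it the estimated reads of RPL10, for example, were whole in each library (910 and 961 in knockdown, 1729 and 1977 in control). The scaling may thus have used a read total common to both libraries of a group. Estimated reads served for depth and for the chi-square between libraries of a group, and not for the fits.

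Sequence windows and fold changes were handled in Python 3.11.15 with pandas 2.3.3. The reference is GRCh38, not the authors' build, so no gene coordinates of the table are given. The genes and lists were chosen with earlier results of these data known. Values per library are given for genes that passed, the 5 highest and 5 lowest log2 fold changes, stalk, RPSA, RPS6, RPL5, RPL11, RPS19, RPS14 and paralog genes, genes under the filter, and up to 4 genes per other list with the smallest p; RPL8, RPL36, LARP1 and the pseudogenes were named after their values were seen. Values of some single genes are not reported here. Alternatives were other scalings, pseudocounts of 0.1 and 1, no filter, a mean of at least 5 RPKM, protein-coding genes alone, no trend, a replicate block and each library left out.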

Additional observations from a re-analysis of the deposited data

How the results depend on the processing

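Pseudocounts of 0.1 and 1 and a fit without a variance trend kept all counts within 1.5 times. The number of ribosomal protein genes that fell (9 as deposited) and rose (1) was 31 and 12 with median-ratio scaling, 14 and 22 with the ribosomal protein median made equal, 35 and 7 with libraries scaled to the same summed RPKM, 2 and 0 without a filter, and 2 and 0 among genes with at least 50% unique windows, and 2 rose with protein-coding genes alone. No label says that equal replicate numbers mark a pair, and deviations of same-numbered libraries had a correlation of 0.0307. With the replicate block 32 fell and 6 rose, and 27 and 8 with median-ratio scaling added. With 1 library left out, as deposited, 5 fell with control replicate 1 out, 2 with control replicate 2 out, 2 with knockdown replicate 1 out and 4 with knockdown replicate 2 out, and 0 rose. With median-ratio scaling these were 21, 18, 25 and 25 that fell, and 6 to 7 rose. Among all genes, 4237 rose with median-ratio scaling and 5722 with equal ribosomal protein medians. The same summed RPKM gave 4632 that fell and 3696 that rose, no filter 255 and 262, and a mean of at least 5 RPKM 1321 and 1047. The replicate block gave 3109 that rose, and 3917 with median-ratio scaling. With 1 library left out, 1057 to 2007 fell and 759 to 1158 rose as deposited, and up to 3661 fell and 3183, 3189, 3613 and 3635 rose with median-ratio scaling. Making the ribosomal protein medians equal turned the median log2 fold changes to 0.043 for all, 0.052 for large and 0.038 for small subunit genes, by its construction, and those of RPL11 to 0.22, RPL22L1 to 0.23 and RPL36AL to 0.18. RPL11 was at 0.062 with median-ratio scaling. The difference in share of summed RPKM (−0.108 percentage points) was −0.125 and −0.111 over genes with a mean of at least 5 and 1 RPKM, −0.1595 over protein-coding genes, −0.0964 without RPL13A and RPL39L and −0.0708 over genes with at least 50% unique windows. The pseudogene difference (0.0319) was 0.0031 without RPL36AP44 and RPL24P8. Of the values of single named genes under these settings, 661 kept their call, 115 gained and 62 lost it. The causes were not tested. Scalings with median ratios and left-out libraries together, the sets by unique windows and those without RPL13A and RPL39L or without 2 pseudogenes were chosen after seeing the data. With a library left out, the lone one of its group is assumed to vary like the others.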

Other observations

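The genes next to RPL13A on chromosome 19 were looked at after its values were seen. FLT3LG, which codes for a haematopoietic cytokine, was at 2.13 and 2.23 RPKM in the hnRNPM knockdown and 4.88 and 6.13 RPKM in the control libraries, a log2 fold change of −1.16 (limma, adjusted p = 1.58e-09). RCN3, a calcium-binding protein of the endoplasmic reticulum, was at 1.44 and 1.84 RPKM in the knockdown and 4.72 and 5.02 RPKM in the control libraries (−1.33; limma, adjusted p = 3.86e-12). FCGRT (−0.68; limma, adjusted p = 0.00182) and ALDH16A1 (−0.45; limma, adjusted p = 0.0313) fell too.

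Of the 10 ribosomal protein pseudogenes with a mean of at least 10 RPKM, 3 rose, 1 fell and 6 did not pass, beside 14.7% of all tested genes that rose and 21.8% that fell. Those that passed were named after their values were seen. RPL24P8 was at 16.8 and 18.6 RPKM in the knockdown and 3.63 and 3.07 RPKM in the control libraries (2.24; limma, adjusted p = 7.93e-35). It lies inside MAMDC2 on the same strand, which was at 143 and 159 RPKM in the knockdown and 21.1 and 23.7 RPKM in the control libraries. RPL36AP44 was at 76.9 and 86.5 RPKM in the knockdown and 43.7 and 50.7 RPKM in the control libraries (0.79; limma, adjusted p = 3.82e-05), inside ANXA2 on the opposite strand. RPL36AP30, inside UBE3C on the opposite strand, rose as well (0.61; limma, adjusted p = 0.00227). RPL41P5 was at 21.2 and 23.8 RPKM in the knockdown and 37.3 and 39.5 RPKM in the control libraries and fell (−0.76; limma, adjusted p = 9.18e-05).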
